A study of Mus musculus with 6 samples.

Results

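The Wnt pathway was examined in the cortex of mouse embryos at E13.5 with and without the RNA-binding protein Ybx1. The genes described are the Wnt ligands, their Frizzled and Lrp receptors, and the secreted Sfrp, Dkk and Wif1 antagonists. With them are the R-spondins, the cytoplasmic relay proteins, the TCF/LEF transcription factors and the feedback targets. They were picked out by a rule on gene symbols, which was set with earlier results of these data known. The rule found 58 of the 17348 genes listed. Of these 58, 16 are ligands, 12 receptors, 9 secreted antagonists, 4 R-spondins, 7 relay proteins, 4 TCF/LEF factors and 6 feedback or turnover genes. A filter on low counts left 42 of the 58 for the test of genotype, and all 58 are accounted for below.

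There were 3 libraries of each genotype. The cKO embryos carried the Nestin-Cre transgene and floxed Ybx1 on both alleles (Nestin-Cre, Ybx1 fl/fl), and the WT libraries came from control littermates, which the study's account of its mice describes as Ybx1 fl/fl without Cre. The floxed allele was made in C57BL/6J eggs. Nestin-Cre acts in neural progenitors and their progeny, so cells of other lineages in the tissue keep Ybx1, and whether a library pools embryos is not given in the sources used here. Nothing says which libraries shared a sequencing batch, and the tests below set the difference between genotypes against the spread between these libraries.

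Wnt proteins are lipid-modified secreted ligands. At the cell surface they bind a Frizzled receptor with the co-receptor Lrp5 or Lrp6, which stops a cytoplasmic complex of Axin, Apc and Gsk3 from marking beta-catenin for destruction, and beta-catenin then works with TCF/LEF factors at target genes such as Axin2. In the embryonic cortex the pathway is known for keeping progenitors dividing early and for promoting neuronal differentiation later, and the cortical hem, a strip at the medial edge of the cortex, is a known source of several ligands.

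Before the members, the libraries were checked. They held between 15907486 and 16282921 counts. Ybx1 gave 1021, 527 and 1219 CPM (counts scaled to the same normalised library total) in WT replicates 1 to 3 and 83.0, 117 and 147 CPM in cKO replicates 1 to 3. The groups did not overlap, but the library labelled WT replicate 2 lay between the others of its genotype and the cKO libraries. Ybx1 fell by 2.998 on the log2 scale in cKO and edgeR's quasi-likelihood test gave it an adjusted p-value of 0.128. Without WT replicate 2 its log2 fold change was -3.28 (edgeR adjusted p = 0.0206). The 11 cortex markers, Emx1, Pax6 and Tbr1 among them, were present in all 6 libraries, with summed levels of 3974 to 4753 CPM in WT and 3639.8 to 4720.5 in cKO. cKO replicate 3 stood apart: 9 of 12 epidermis markers and 8 of 10 dermis markers were at least 4-fold above every other library there. The epidermis list summed to 331 CPM in that library, against 13.0 to 15.5 in the other 5, and the dermis list to 496 CPM against 32.2 to 53.1. Of 11 meninges markers, 5 stood out likewise (Col1a1, Col1a2, Col3a1, Dcn and Lum), and the list summed to 632 CPM against 95.5 to 133. Col1a1, Col3a1 and Lum are on the dermis list too. The other meninges markers were not raised there, with Foxc1 at 18 counts against 14 to 40 elsewhere. Zic1 was at 90.0 CPM against 68.2 to 99.1. The defining skin markers Krt14 and Twist2 had 823 and 353 counts in cKO replicate 3 and at most 1 count in any other library. The epidermis markers Krt1, Krt10 and Krtdap did not stand out. Krt1 had 25 counts there against 16 to 23 elsewhere, and Krtdap had 3 against 0. Krt10 was at 6.87 CPM against 7.27 to 8.81. Of the dermis list, Dpt (8 counts against 0) and Prrx1 (58.0 CPM against 26.1 to 41.6) did not meet the 4-fold rule. Results of the members that rest on this library are given with and without it.

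Across the pathway, no member passed the test of genotype after adjustment. With a threshold of 0.05 on the edgeR adjusted p-value, 0 of the 42 members tested were higher and 0 lower in cKO, and among all 13340 genes tested the percentages called were 0 and 0. DESeq2 and limma-voom also called 0 members in either direction. At an unadjusted p-value under 0.05, 1 member was higher and 0 were lower. That is 2.38% of the members, against 3.57% of all genes tested in either direction, 1.75% higher and 1.81% lower. The member was Tcf7l1. The genotypes did not overlap for 2 of the 42, Tcf7l1 and Tcf7l2, both with cKO above, which is 4.76% of the members against 4.21% of all genes with cKO above and 9.04% in either direction. With cKO below there were 0, against 4.83% of all genes. These shares are near the background. The median log2 fold change over the 42 was 0.08, against 0.00 over all genes tested. Of the 42, 26 were above 0, which is 61.9% against 50.8% of all genes tested. Without cKO replicate 3 the median over the members was -0.02. In whole tissue, fewer cells of a type and less RNA per cell cannot be told apart.

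The test bounded the size of a difference for most members. The 95% interval of the fold change lay within 1.5-fold in either direction for 27 of the 42 and within 2-fold for 33. Over all genes tested these shares were 78.2% and 91.5%, against 64.3% and 78.6% of the members. The narrowest intervals belonged to abundant receptors and relay proteins, and the widest to scarce genes such as Dkk2, Wif1, Rspo2 and Rnf43, each of which had its highest value in cKO replicate 3.

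**Figure D1:**
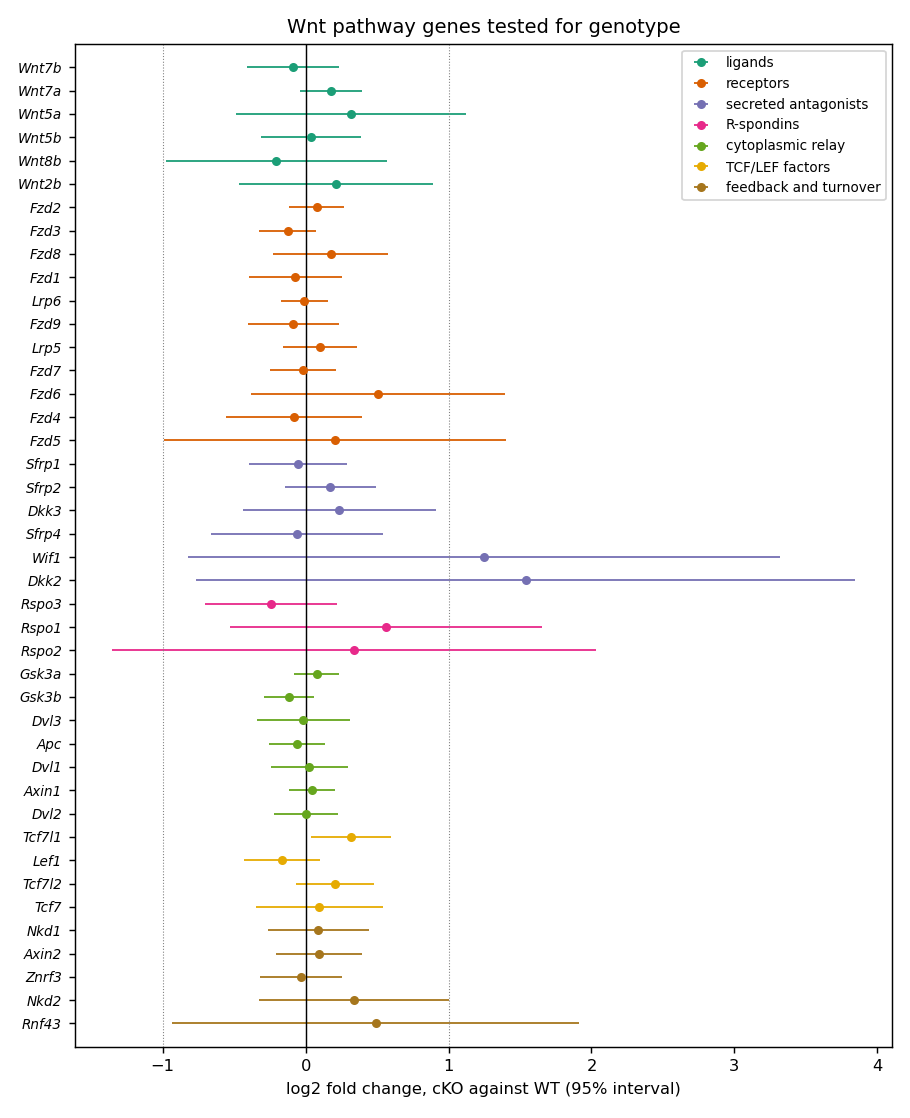
Log2 fold change of cKO against WT for the 42 members tested, with points for the edgeR estimate and bars for the 95% interval, in order of role and level, with dotted lines at 2-fold. Only the interval of Tcf7l1 (0.04 to 0.60) leaves out 0, and those of Dkk2 and Wif1 reach beyond 3 on the log2 scale.

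The ligands of the cortex were led by Wnt7b and Wnt7a. On the length-scaled TPM scale, Wnt7b reached 186 ± 31.6 TPM in WT and 175 ± 37.8 in cKO (SD, n = 3 each), and Wnt7a reached 23.1 ± 2.09 and 26.2 ± 0.906 TPM. Wnt7b alone made up 79.2% to 80.0% of the summed ligand TPM in the WT libraries. In cKO it made up 81.2%, 76.7% and 59.6% in replicates 1, 2 and 3. Next in WT came Wnt5a (7.93 ± 2.25 TPM), Wnt5b (7.32 ± 0.403) and Wnt8b (6.08 ± 3.00), whose levels did not differ beyond their spread, then Wnt2b (1.67 ± 0.501). Each of the other 10 ligands averaged at most 0.387 TPM in WT. Wnt1, Wnt8a and Wnt16 were not analysed here.

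Wnt7b (chr15:85535437-85581821, GRCm38), a ligand of cortical neurons and progenitors that also acts on brain vessels, gave 310, 246 and 265 CPM in WT and 311, 227 and 234 CPM in cKO. In each genotype replicate 1 was the highest, and the groups overlapped throughout. The log2 fold change was -0.09 (95% interval -0.41 to 0.24), and the unadjusted p-value in edgeR's test was 0.552. Wnt7a (chr6:91363981-91411353), its close relative, gave 29.9, 29.7 and 34.8 CPM in WT and 33.8, 36.0 and 37.0 CPM in cKO. WT replicate 3 lay above the lowest cKO library, so the groups overlapped by that library alone. Its log2 fold change was 0.18 (95% interval -0.04 to 0.39; edgeR unadjusted p = 0.0932). In cells of the vessel wall these ligands act through Reck and Adgra2. Reck had 12.1 to 17.1 CPM in WT and 13.3 to 21.6 in cKO, and Adgra2 had 3.59 to 6.97 and 4.86 to 21.1 CPM, with the highest value of both in cKO replicate 3. Without that library their log2 fold changes went from 0.26 to 0.06 for Reck and from 0.92 to -0.16 for Adgra2.

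Wnt5a, a ligand known for beta-catenin-independent signalling and a marker of the cortical hem, gave 22.2, 18.1 and 14.2 CPM in WT and 19.1, 12.7 and 36.0 CPM in cKO. The last value, from cKO replicate 3, was the only one outside the WT range on the high side. Over all libraries the log2 fold change of Wnt5a was 0.32 (standard error 0.35), and it was -0.19 without cKO replicate 3. Wnt8b, a hem ligand that also marks medial cortical progenitors, gave 13.3, 7.31 and 5.93 CPM in WT and 8.17, 5.14 and 9.70 CPM in cKO. Here WT replicate 1 was the highest, and the log2 fold change turned from -0.20 to 0.22 without it. Wnt2b, a hem ligand as well, had 2.10 to 3.33 CPM in WT and 2.07 to 3.92 in cKO, so that the groups overlapped. Its log2 fold change was 0.21 with every library in and -0.02 without cKO replicate 3. For these 3 ligands the difference was within the spread between libraries.

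Most of the remaining ligands were found almost entirely in 1 library. Wnt6, Wnt10b, Wnt2 and Wnt9b had 0 counts in each of the other 5 libraries and 190, 149, 43 and 63 counts in cKO replicate 3. A count of 0 allows a level of up to 0.181 to 0.188 CPM, depending on the library, a limit that covers counting error only. Wnt4 gave 5, 2 and 6 counts in WT, 3 and 3 in cKO replicates 1 and 2, and 246 in cKO replicate 3. Wnt3 gave 2, 3 and 9 counts in WT and 3, 9 and 93 in cKO. Wnt10a gave 4, 2 and 2 counts in WT and 1, 0 and 51 in cKO. Wnt11 gave 1, 0 and 0 counts in WT and 0, 0 and 48 in cKO. Wnt3a, the hem ligand needed for hippocampal growth, gave 17, 1 and 3 counts in WT and 2, 2 and 87 in cKO, so it also rose above the rest in WT replicate 1. With Wnt9a, which went from 2 to 10 counts elsewhere to 30 counts there, all 16 ligands had at least 10 counts in cKO replicate 3, whereas 6 to 8 did in the other libraries.

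In all, 12 of the 58 members were at least 4-fold above every other library in cKO replicate 3 with at least 10 counts there. They were the 9 ligands just given, the receptor Fzd10 and the antagonists Dkk1 and Dkk2. This is 20.7% of the members, against 1.93% of all 17348 genes listed, and in each of the other 5 libraries 0 members met the same rule, against 0.00576% of all genes in 4 of them and 0.0231% in cKO replicate 2. Fzd10 gave 7, 7 and 19 counts in WT and 5, 6 and 154 in cKO. Dkk2 gave 10, 7 and 13 counts in WT and 4, 7 and 79 in cKO. Dkk1 gave 3, 0 and 0 counts in WT and 1, 0 and 13 in cKO. The 9 ligands together had 970 counts in cKO replicate 3, against 8 to 29 in the other libraries, and made up 18.2% of its ligand TPM, against 0.198% to 0.609% elsewhere.

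**Figure D2:**
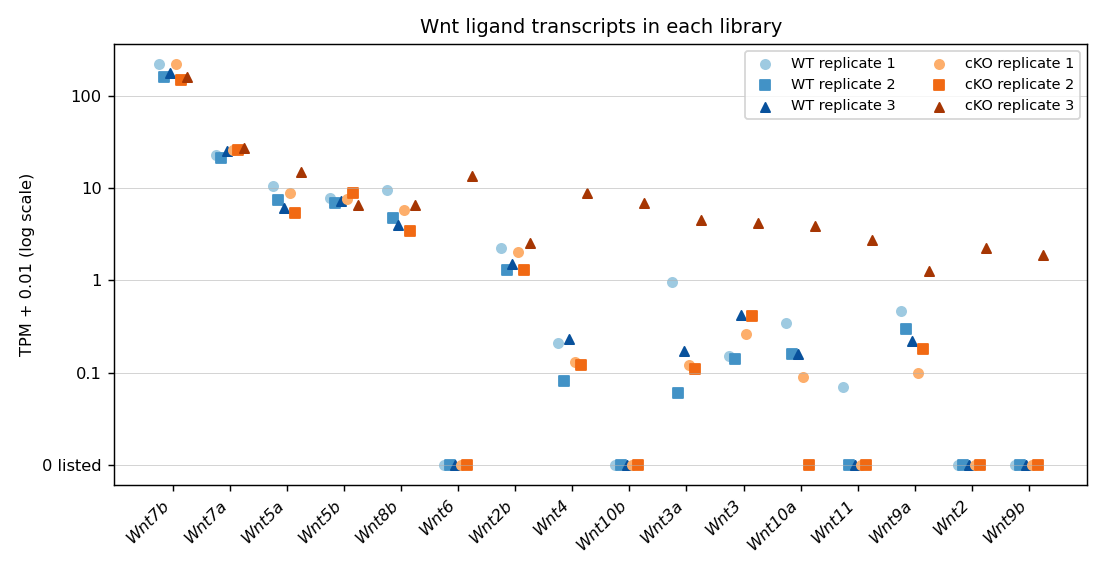
TPM of the 16 Wnt ligands in each of the 6 libraries, on a log scale with 0.01 added, where blue marks WT, orange marks cKO and the marker shape gives the replicate. Wnt7b lies above 100 TPM in every library, and cKO replicate 3 (dark triangles) is alone above 1 TPM for the 10 least abundant ligands of WT.

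The same library held the epidermis and dermis transcripts given above. Wnt4, Wnt6, Wnt10a and Wnt10b are known to be expressed in embryonic surface ectoderm, and Dkk2 in the mesenchyme below it. The part of skin transcripts in the levels of these 12 members was not tested. Of the 12, only Dkk2 passed the filter for the test of genotype, and 0.555% of all genes tested stood out in that library. The log2 fold change of Dkk2 was 1.54 with every library in (95% interval -0.77 to 3.85) and -0.85 without cKO replicate 3. Within the listed ligands, Wnt6 (chr1:74754342-74785322) and Wnt10a (chr1:74792019-74804176) are neighbours in GRCm38, as are Wnt3a and Wnt9a on chromosome 11. Wnt9b (chr11:103727362-103775272) and Wnt3 (chr11:103774175-103818021) overlap at their ends in RefSeq, so their counts may share reads.

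**Figure D3:**
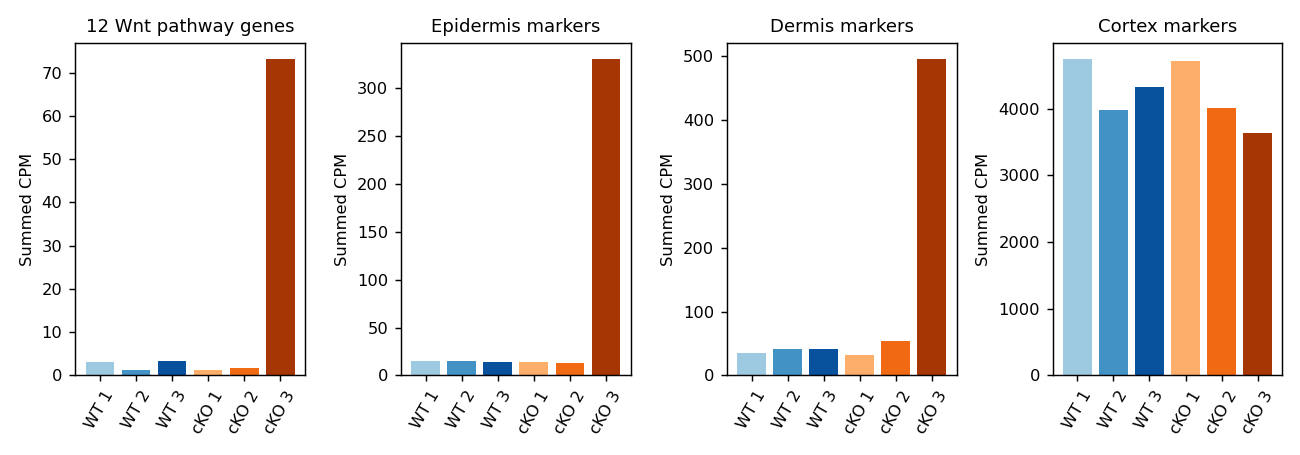
Summed CPM per library of 12 members and of the marker lists for epidermis (12 genes), dermis (10) and cortex (11), with 1 bar per library. The 12 members were picked for being at least 4-fold above every other library in cKO replicate 3. Their sum is therefore highest there by choice (73.3 CPM). The epidermis and dermis sums are highest in cKO replicate 3 too (331 and 496 CPM), and the cortex sum is lowest there (3639.8 CPM).

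Among the receptors, Fzd2, Fzd3, Fzd1 and Fzd8 were the most abundant. Their WT levels were 90.0 ± 8.85, 78.2 ± 4.48, 60.6 ± 12.6 and 58.7 ± 4.87 TPM (SD, n = 3), and the latter pair did not differ beyond their spread. The co-receptors Lrp6 and Lrp5 reached 33.7 ± 2.82 and 19.4 ± 3.40 TPM. Fzd9 and Fzd7 followed at 28.5 ± 4.35 and 12.9 ± 0.961 TPM, and Fzd6, Fzd4, Fzd10 and Fzd5 were each under 5 TPM.

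Fzd3, a Frizzled best known for axon guidance and planar polarity, gave 462, 486 and 442 CPM in WT and 465, 415 and 395 CPM in cKO. cKO replicate 1 lay inside the WT range and the other cKO libraries below it. The log2 fold change was -0.13 (95% interval -0.33 to 0.07), with an edgeR unadjusted p-value of 0.185. Fzd2 gave 150, 135 and 144 CPM in WT and 155, 162 and 136 CPM in cKO, and its log2 fold change was 0.08 (95% interval -0.12 to 0.27). Lrp6 had the narrowest interval of the receptors, from -0.17 to 0.16 around a log2 fold change of -0.01. Of the 11 receptors tested, 5 had log2 fold changes above 0 and 6 below, and the median was -0.01. The largest was that of Fzd6 at 0.51 (standard error 0.39), a receptor known for hair and skin patterning, with 342 counts in cKO replicate 3 and 103 to 157 elsewhere, and it was -0.13 without that library.

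Of the secreted antagonists, Sfrp1 was the most abundant of all 58 members. Sfrp1, which binds Wnt proteins and is made by cortical progenitors, reached 256 ± 15.6 TPM in WT and 246 ± 42.3 in cKO. It gave 449, 508 and 540 CPM in WT and 396, 590 and 454 CPM in cKO. The lowest and the highest libraries were both cKO, and the log2 fold change was -0.06 (95% interval -0.40 to 0.29). Sfrp2, known from the boundary between pallium and subpallium, gave 29.0, 29.3 and 35.8 CPM in WT and 29.1, 38.5 and 38.5 CPM in cKO. Its log2 fold change was 0.17 (95% interval -0.15 to 0.49), and the groups overlapped at cKO replicate 1. Dkk3 and Sfrp4 stood at 6.79 ± 1.43 and 2.96 ± 0.781 TPM in WT. Dkk3 had 287 counts in cKO replicate 3 and 122 to 187 elsewhere, and its log2 fold change turned from 0.24 to -0.17 without that library. The antagonist Wif1 varied widely between libraries, with 35, 6 and 11 counts in WT and 20, 9 and 98 in cKO, and its log2 fold change turned from 1.25 to -0.25 without cKO replicate 3. Sfrp5, at 0 to 2 counts per library, and Dkk4, at 0 to 1, were near the limit of detection.

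The R-spondins, which raise receptor levels by removing Znrf3 and Rnf43 from the cell surface, were represented mainly by Rspo3. It made up 80.4% to 87.2% of the summed R-spondin TPM in WT and 62.7% to 85.1% in cKO. Rspo3 gave 29.7, 24.1 and 21.4 CPM in WT and 25.6, 15.2 and 22.7 CPM in cKO. Only cKO replicate 2 lay outside the WT range, and the log2 fold change was -0.24 (95% interval -0.70 to 0.22). Rspo1 gave 3.77, 4.09 and 1.94 CPM in WT and 3.06, 2.82 and 8.56 CPM in cKO, the last from cKO replicate 3. Without it the log2 fold change of Rspo1 turned from 0.56 to -0.15. Rspo2 had 7 to 43 counts per library, and Rspo4 had 0 to 1. Rspo2 was highest in cKO replicate 3, and its log2 fold change turned from 0.34 to -0.74 without that library.

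The relay proteins were the steadiest group. All 7 had between 44.0 and 180 TPM on average in WT, all 7 were tested, and their log2 fold changes ran from -0.12 for Gsk3b to 0.08 for Gsk3a, with a median of 0.00. Gsk3a, a kinase of the destruction complex, gave 159, 147 and 163 CPM in WT and 169, 168 and 157 CPM in cKO. Its paralog Gsk3b gave 422, 392 and 394 CPM in WT and 392, 373 and 349 CPM in cKO. For both kinases 1 cKO library lay inside the WT range. Their 95% intervals were -0.08 to 0.24 and -0.29 to 0.06, and the edgeR unadjusted p-values were 0.299 and 0.164. For Axin1 and Apc, the scaffolds of that complex, the intervals were -0.11 to 0.20 and -0.25 to 0.14. The 3 Dishevelled genes, which pass the signal on from Frizzled, had log2 fold changes between -0.02 and 0.03.

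Of the 42 members tested, Tcf7l1 had the smallest p-value, and it was higher in all 3 cKO libraries without passing the adjusted test. Tcf7l1 (chr6:72626371-72789045), also called Tcf3, is a TCF factor known mostly as a repressor of Wnt targets when beta-catenin is absent. It gave 68.6, 66.7 and 73.5 CPM in WT and 78.7, 105 and 76.9 CPM in cKO. Every cKO library lay above every WT library, and cKO replicate 2 lay far above the other cKO libraries. The log2 fold change of Tcf7l1 was 0.32 (95% interval 0.04 to 0.60), with an edgeR unadjusted p-value of 0.0316, rank 277 of the 13340 genes, and an adjusted p-value of 0.99998. On the TPM scale the groups did not overlap either, with 52.5 to 59.2 TPM in WT and 63.1 to 82.9 in cKO. Without cKO replicate 2 the log2 fold change was 0.16 (unadjusted p = 0.0858), and without cKO replicate 3 it was 0.40 (unadjusted p = 0.0137), both by edgeR. The unadjusted p-value also rose above 0.05 without WT replicate 1 (0.0642) and without WT replicate 2 (0.0925). Markers of the ventral forebrain moved the same way. Of 12 listed, 10 were tested and 6 of these had an edgeR unadjusted p-value under 0.05. All 6 were higher in cKO, where 1.75% of all genes tested were called higher, while 0 passed after adjustment. Sst, 1 of the 6, had the smallest p-value of the 13340 genes (log2 fold change 1.15, edgeR adjusted p = 0.0953). The list summed to 125, 120 and 180 CPM in WT and 195, 224 and 200 CPM in cKO. Nkx2-1 and Dlx6 were scarce and not tested. The defining factor Nkx2-1 gave 2, 2 and 1 counts in WT and 7, 4 and 4 in cKO. Dlx6 gave 5, 5 and 13 counts in WT and 4, 10 and 10 in cKO, so the genotypes overlapped. The part of ventral tissue in the levels of Tcf7l1 was not tested.

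Tcf7l1 was the main TCF/LEF transcript, at 61.2% to 66.3% of the summed TPM of the 4 factors in WT and 64.7% to 74.7% in cKO. Tcf7l2, better known from the thalamus and midbrain at this stage, gave 11.5, 10.8 and 11.6 CPM in WT and 12.5, 14.9 and 11.8 CPM in cKO. The gap between WT replicate 3 and cKO replicate 3 was small, and on the TPM scale the groups overlapped, with 6.07 to 7.05 TPM in WT and 6.80 to 8.06 in cKO. Its log2 fold change was 0.21 (95% interval -0.07 to 0.48; edgeR unadjusted p = 0.122). The 10 other markers of diencephalon, midbrain and hindbrain summed to 1.69, 0.929 and 1.25 CPM in WT and 1.68, 1.5 and 25.3 CPM in cKO. In cKO replicate 3 Irx3, Irx5 and Hoxa2 stood out, at 159, 193 and 48 counts. Hoxb3, Hoxb4, Gbx2, Barhl1, Pax2 and Pax7 had only 0 to 4 counts there. The midbrain factor Tal2 gave 3, 5 and 6 counts in WT and 7, 8 and 8 in cKO, and the part of such tissue in the levels of Tcf7l2 was not tested. Lef1, an activator and itself a Wnt target, needed for the hippocampus, gave 38.4, 33.2 and 33.4 CPM in WT and 32.8, 26.8 and 34.1 CPM in cKO. cKO replicate 3 lay inside the WT range, and the log2 fold change was -0.17 (95% interval -0.43 to 0.10). Tcf7 had 4.43 to 6.72 CPM in WT and 5.17 to 6.09 in cKO.

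The feedback targets, whose transcripts are used as a readout of beta-catenin activity, overlapped between genotypes. Axin2 (chr11:108917828-108950783), the best known of them, gave 47.6, 38.6 and 41.4 CPM in WT and 43.1, 39.6 and 53.5 CPM in cKO. The highest value came from cKO replicate 3, and the log2 fold change was 0.09 with it (95% interval -0.21 to 0.40) and -0.04 without it. Nkd1, an inhibitor that acts on Dishevelled, gave 49.5, 33.0 and 35.2 CPM in WT and 42.8, 38.4 and 43.8 CPM in cKO. All cKO values lay between the lowest and the highest WT library, and the log2 fold change was 0.09 (95% interval -0.27 to 0.44). Znrf3, a ligase that removes Frizzled from the membrane, had a log2 fold change of -0.03 (95% interval -0.32 to 0.25). Nkd2, Rnf43 and the Wnt deacylase Notum were scarcer, and each was highest in cKO replicate 3, at 173, 54 and 8 counts. Without that library the log2 fold changes of Nkd2 and Rnf43 turned from 0.34 to -0.09 and from 0.49 to -0.68.

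**Figure D4:**
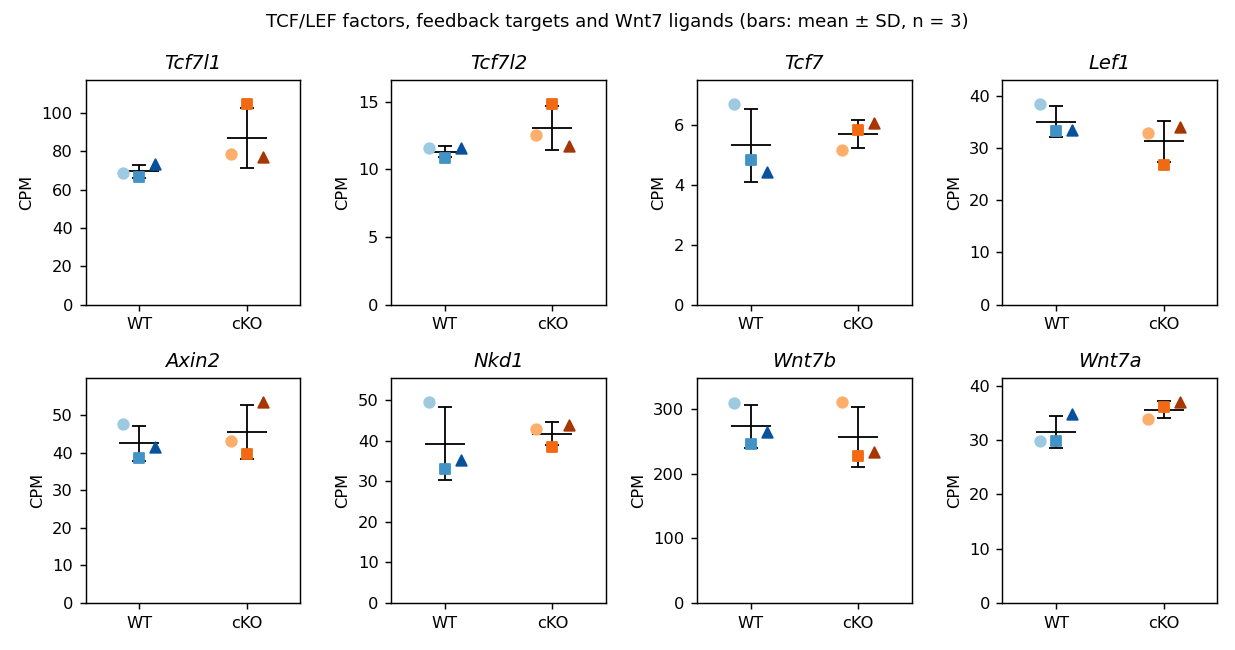
CPM of the 4 TCF/LEF factors, the feedback targets Axin2 and Nkd1 and the ligands Wnt7b and Wnt7a in each library, where points are libraries (circle, square and triangle for replicates 1, 2 and 3) and bars give the mean ± SD (n = 3). For Tcf7l1 the 3 cKO points (76.9 to 105 CPM) lie above the 3 WT points (66.7 to 73.5 CPM), and for Axin2, Nkd1 and both ligands the genotypes overlap.

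Since TCF/LEF factors are known to bind the letters CTTTGAA or CTTTGAT, with CTTTGTA and CTTTGTT as close variants, the starts of the known target genes were searched for them on both strands, in windows of 250 bases before to 50 after each RefSeq start (GRCm38.p6). Windows were found for 5 of the 7 targets searched (Axin2, Lef1, Nkd1, Rnf43 and Sp5) and the letters for 2, Lef1 and Sp5. The same letters were found for 18.9% of all genes with a window and for 8 of the 39 members with one (20.5%). They are shown because these are the targets whose levels are given here, 5′ to 3′ on the strand of the gene, with the matched letters in capitals. A match of letters is not evidence that a factor binds there.
Lef1, chr3:131156137-131156163, before a start inside the gene: aacctcagaaTACAAAGtaggattgca
Sp5, chr2:70474691-70474717: tcctagagatAACAAAGacactttgtc
Sp5, chr2:70474809-70474835: gcaaggccccCTTTGATcaggaaaatc
Tcf7l2, chr19:55895297-55895323, before a start inside the gene: aaatatcaggCTTTGTTcttttgattg
The match of Lef1 and the match at the upstream site of Sp5 lie on the opposite strand. Tcf7l2 is shown because, beside Lef1, it is a TCF/LEF factor that had the letters, and Tcf7l1 had none in its window. Sp5, a target factor outside the rule, gave 2.32, 1.11 and 1.44 CPM in WT and 0.623, 0.627 and 4.58 CPM in cKO. The cKO libraries held both its lowest and its highest value, and its log2 fold change was 0.27 (standard error 0.75). Without cKO replicate 3 it was -1.37 (edgeR unadjusted p = 0.0124), with an edgeR adjusted p-value of 0.99980.

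Other genes of the pathway, listed apart from the members, gave the same picture. Of 46 such genes, 41 were tested, 0 were higher and 1 was lower at an unadjusted p-value under 0.05, against 1.75% and 1.81% of all genes, and 0 passed after adjustment in edgeR's test. The median log2 fold change was -0.01, with 20 above 0 and 21 below. The lower gene was Amer1, which holds Apc and Axin at the membrane, with 45.9, 40.9 and 46.0 CPM in WT and 39.4, 36.2 and 38.2 CPM in cKO. The genotypes did not overlap, and Amer1 differed by -0.22 on the log2 scale (standard error 0.08, edgeR unadjusted p = 0.0267), or by -0.23 without cKO replicate 3 (edgeR unadjusted p = 0.0610). Ctnnb1, which encodes beta-catenin, had a log2 fold change of -0.01 (95% interval -0.22 to 0.19). Wls, the carrier that nearly every Wnt protein needs for secretion, gave 13.2 to 15.3 CPM in WT and 13.4, 11.0 and 53.8 CPM in cKO. The last value came from cKO replicate 3, without which its log2 fold change turned from 0.90 to -0.19. In that library Kremen2, Lgr5, Lgr6 and Sostdc1 were also at least 4-fold above the other 5. Of 13 further targets listed, 10 were tested, and 0 were higher or lower at an unadjusted p-value under 0.05. Without cKO replicate 3, Sp5, given above, and Tnfrsf19 were lower at that threshold, beside 2.43% of all genes in either direction. Tnfrsf19 gave 182, 185 and 169 CPM in WT and 136, 153 and 189 CPM in cKO. Without that library its log2 fold change went from -0.16 to -0.30 (edgeR unadjusted p = 0.0110, adjusted p = 0.99980). Among the 10 targets, Neurog2, a neurogenic factor, had a log2 fold change of -0.01 (95% interval -0.21 to 0.19).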

How the data were processed

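Total RNA was extracted with Trizol from E13.5 cortex, made into mRNA libraries and sequenced on a DNBSEQ platform. The submitters' processing notes name HISAT2 2.2.1, Bowtie2 2.4.5, RSEM 1.3.1 and GRCm38 (mm10), without roles. The annotation and the strand setting are not given in the sources used here, so overlapping genes are uncertain. The authors deposited estimated counts per gene, not normalised for depth, of which 10.9% were not whole, as well as TPM values (scaled for length and to the same sum per library) and FPKM values, which were deposited by the authors too and entered no test. Another 6 columns hold the authors' group means and were not used.

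Counts were rounded. filterByExpr (minimum count 10, minimum total 15) left 13340 of 17348 genes, and TMM factors lay between 0.987 and 1.03. edgeR's quasi-likelihood test (edgeR 4.0.16, R 4.3.3) had genotype as its only term, with Benjamini-Hochberg adjustment over all genes tested and a threshold of 0.05. The standard error was the log2 fold change divided by the square root of F, and the 95% interval used the test's degrees of freedom. The fit was tested on simulated data. TPM served to compare genes, CPM to compare libraries.

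Of the cortex markers listed at first, 1 is not reported here. Members and lists were chosen with earlier results of these data known. Members given in full were those with an unadjusted p-value under 0.05, the 2 most abundant per role, Wnt2b, Wnt3a, Wnt5a, Wnt7a, Wnt7b, Wnt8b, Axin2, Lef1 and Sfrp1, and those at least 4-fold above every other library in 1 library with at least 10 counts. Other genes with values were named after their values were seen. Alternatives were DESeq2 1.42.0, limma-voom (limma 3.58.1), limma on log2(TPM + 1), factors by RLE or by the upper quartile, a stricter filter (10 counts or more per library) or none, the replicate number as a block, each library left out, and WT replicate 2 and cKO replicate 3 left out together. Coordinates, given 1-based, and promoter windows are from RefSeq on GRCm38.p6, where all 58 members were found by Entrez identifier. The depth of 15907486 to 16282921 counts sets the limit that 0 counts allow, 3 counts of a library.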

Additional observations from a re-analysis of the deposited data

How the results depend on the processing

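In all 15 alternatives, 0 members had an adjusted p-value under 0.05 in either direction. Tcf7l1 kept a positive log2 fold change in all of them, from 0.16 without cKO replicate 2 to 0.40 without cKO replicate 3. At an unadjusted p-value under 0.05, 1 member was higher; there were 7 with no filter (12.1% of members against 2.25% of all genes higher), where 6 of them were ligands seen mainly in cKO replicate 3, and from 0 (without WT replicate 2, 1.44% of all genes) to 5 (without cKO replicate 1, 11.1% of members against 4.23% of all genes) when 1 library was left out. Lower members numbered from 0 to 1. The median log2 fold change of the members was 0.17 with no filter, which adds 16 scarce members, -0.024 with WT replicate 2 and cKO replicate 3 both left out, and from -0.022 (without cKO replicate 3) to 0.12 with 1 library left out. By role, no filter gave medians of 2.31 for ligands and 0.49 for secreted antagonists. With both libraries left out they were -0.12 for ligands, 0.047 for receptors and -0.32 for R-spondins. With 1 library left out they ranged from -0.14 to 0.38 for secreted antagonists, from -0.29 to 0.76 for R-spondins and from 0.090 to 0.26 for TCF/LEF factors.

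Of 18 named members tested, 9 changed sign in some alternative, none of them with an adjusted p-value under 0.05 there. With both libraries left out, log2 fold changes were -0.11 for Axin2, -1.05 for Dkk2, -0.060 for Nkd1, -0.15 for Wnt2b and -0.19 for Wnt5a. With 1 library left out they ranged from -0.040 to 0.19 for Axin2, from -0.85 to 2.07 for Dkk2, from -0.023 to 0.29 for Nkd1, from -0.15 to 0.83 for Rspo1, from -0.23 to 0.072 for Sfrp1, from -0.022 to 0.43 for Wnt2b, from -0.19 to 0.60 for Wnt5a, from -0.24 to 0.017 for Wnt7b and from -0.43 to 0.22 for Wnt8b.

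Ybx1 passed the adjusted threshold with DESeq2 (-2.996, adjusted p-value 5.46e-10), with both libraries left out (-3.49, 0.0188) and without WT replicate 2. With 1 library left out its log2 fold change ranged from -3.28 to -2.75. The replicate block was not used for the results above, since nothing says which libraries shared a batch. Libraries of the same replicate number did not all deviate together (correlations of 0.41, 0.31 and -0.02). Between libraries of different number the correlations ran from -0.43 to 0.26. With the replicate block, 2 members were higher at an unadjusted p-value under 0.05 (Tcf7l1 and Wnt7a), beside 1090 genes in all, and Ybx1 passed (-2.95, adjusted p-value 0.0381). The causes of these shifts were not tested. The intervals of 15 members, Wnt5a, Rspo3, Fzd6 and Dkk2 among them, were not bounded within 1.5-fold.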

Other observations

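Transcripts of the cortical hem were listed together, since several Wnt ligands come from it. The list repeats the members Rspo1, Rspo2, Rspo3, Wnt2b, Wnt3a, Wnt5a and Wnt8b given above, so it is not a separate look at them. Of the 14 hem genes listed, 9 were tested. At an unadjusted p-value under 0.05 in edgeR's test, 0 were called in either direction, against 3.57% of all genes tested. After adjustment 0 were called. The list summed to 87.2, 64.7 and 55.2 CPM in WT replicates 1 to 3 and to 66.3, 46.7 and 117 CPM in cKO replicates 1 to 3. Without cKO replicate 3 the log2 fold changes of all 9 were below 0, from -2.39 for Msx1 to -0.02 for Wnt2b. Only Msx1 was then called (edgeR unadjusted p = 0.0259, adjusted p = 0.99980), beside 2.43% of all genes in either direction. Msx1 was scarce, with 12, 15 and 6 counts in WT and 4, 0 and 23 in cKO. WT replicate 1 was the highest of all libraries for Wnt8b (13.3 CPM), Rspo3 (29.7 CPM) and the hem factor Lmx1a (1.69 CPM, against 0.561 to 1.19 elsewhere). It also held 17 counts of Wnt3a and 30 of Rspo2, against 1 to 3 and 7 to 12 in the other libraries but cKO replicate 3, which held 87 and 43. In cKO replicate 3 Bmp4, Msx2 and Wnt3a of the hem list were at least 4-fold above every other library, at 25, 20 and 87 counts. Bmp7, a growth factor of hem and skin alike, was at 22.1 CPM there against 5.74 to 8.98 elsewhere. Lmx1a (1.09 CPM) and Gdf7 (1 count) were not raised in that library. The part of hem tissue in these levels was not tested. Of 7 choroid plexus markers listed, which summed to 1.998 to 5.88 CPM in WT and 3.74 to 6.52 in cKO, 2 were tested. Aqp1 gave 18, 23 and 20 counts in WT and 27, 43 and 36 in cKO (log2 fold change 0.78, edgeR unadjusted p = 0.0182, adjusted p = 0.99998). Otx2 ranged from 8 to 63 counts in WT and from 27 to 51 in cKO, and Ttr had at most 2 counts in any library.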
